A study of Mus musculus with 8 samples.

Results

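Of the 24867 ATAC-seq peaks counted in the NCoR f/f libraries, 1183 were open in resting macrophages, were annotated as intronic or intergenic and had an annotated repeat as their location (4.76%). The members were chosen in 3 steps. The peak had to be in the reproducible (IDR) set of the resting condition, which held 15473 peaks. Its centre had to be annotated as intronic or intergenic, which left 7443 peaks, called distal here whatever their distance to a promoter. Its detailed annotation had to name a repeat with its class and family, which 15.9% of the distal peaks did. The other 6260 distal peaks, named non-repeat distal peaks here, served for comparison. Members were grouped by class as LTR (n = 488), LINE (n = 230), SINE (n = 217), DNA (n = 44), simple or satellite (n = 169) and other (n = 35). A further 66 resting peaks in repeats had a blank annotation and stayed outside the rule.

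All cells were bone marrow-derived macrophages (BMDMs) grown with M-CSF from young adult C57BL/6 mice and kept in low serum before treatment. The resting libraries came from NCoR1 flox/flox cells (NCoR f/f, NWT in the sample titles) given vehicle (Veh) for 6 h, which carry the floxed allele without Cre and stand as controls in the study. A second table held wild type (WT) cells given Veh, KLA (Kdo2 lipid A, a TLR4 agonist) or KLA with RGFP966, all 6 h after Veh or KLA. RGFP966 is an inhibitor of the deacetylase HDAC3. By the paper's methods it was added when the low serum began, before KLA. In the RGFP966 + KLA condition the title names RGFP966 while the treatment label names KLA alone. Each of the 4 conditions had 2 libraries, and no source used here says whether they came from separate mice or cultures, so the spread between them may be technical. ATAC-seq reads out open chromatin as sequencing tags at sites where a transposase could cut.

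Repeats make up much of the mouse genome. LTR elements are remains of retroviruses, LINEs and SINEs spread by retrotransposition, and DNA elements moved by cutting and pasting. Most copies are silent and compacted, while some copies hold binding sites for transcription factors and can act as enhancers. In macrophages PU.1 is the factor that opens and marks many distal sites, together with C/EBP, AP-1 and RUNX factors, and TLR4 signals act through NFκB, AP-1 and IRF factors. GSAT_MM, the major satellite, is a tandem repeat that fills the chromatin around mouse centromeres, where the genome assembly is largely unresolved.

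The sequences that the members share are shown first. Within the LTR group, the ORR1 subfamilies (ancient LTRs of the MaLR kind) held 118 members, and in 57 of the 117 on assembled chromosomes the central 200 bases held the PU.1 motif GAGGAAGT on either strand. The members with the most tags among those with the motif and whole flanks are printed for 4 ORR1 subfamilies, 5′ to 3′ on the strand that holds the motif, with the motif in capitals. The bases are RefSeq's for GRCm38 (mm10).
ORR1D2 near Timm8a2 (chr14:122009755-122009802, minus strand): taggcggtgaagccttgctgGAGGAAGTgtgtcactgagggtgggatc
ORR1D2 near Slc16a7 (chr10:125370136-125370183, plus strand): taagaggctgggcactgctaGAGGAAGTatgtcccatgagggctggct
ORR1B1 near Ubp1 (chr9:113928704-113928751, plus strand): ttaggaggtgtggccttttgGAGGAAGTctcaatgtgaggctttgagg
ORR1B1 near Insig2 (chr1:121334446-121334493, plus strand): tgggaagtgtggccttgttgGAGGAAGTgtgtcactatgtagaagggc
ORR1E near Ky (chr9:102521623-102521670, minus strand): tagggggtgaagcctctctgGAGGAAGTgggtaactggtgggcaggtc
ORR1E near Npsr1 (chr9:23669354-23669401, plus strand): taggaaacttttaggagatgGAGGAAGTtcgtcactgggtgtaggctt
ORR1F near 4930412C18Rik (chr4:9737895-9737942, minus strand): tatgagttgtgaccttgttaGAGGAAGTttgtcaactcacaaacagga
ORR1F near Hs6st1 (chr1:36052706-36052753, minus strand): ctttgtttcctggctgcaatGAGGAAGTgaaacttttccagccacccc

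The bases around the motif were alike to different degrees. Over the 20 bases on either side, pairs of ORR1B1 members were identical at a median of 55% of positions (28 pairs, 30% to 80%), ORR1E pairs at 37.5% (120 pairs) and ORR1D2 pairs at 32.5% (55 pairs). ORR1F pairs shared 27.5% (21 pairs). Pairs of non-repeat distal peaks with the same motif shared a median of 25% (first 400 peaks in the table). The comparison was position by position with no gaps, so a lost or gained base lowers it.

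RMER15, an LTR of the ERVL family, held the AP-1 motif (TGACTCA or TGAGTCA) in 11 of 18 members, shown here for the members with the most tags, with the motif in capitals.
RMER15 near Mir491 (chr4:88213971-88214017, plus strand): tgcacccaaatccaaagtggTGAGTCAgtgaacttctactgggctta
RMER15 near Camk1g (chr1:193400604-193400650, minus strand): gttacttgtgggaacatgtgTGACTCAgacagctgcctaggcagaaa
RMER15 near AI314278 (chr7:89445305-89445351, minus strand): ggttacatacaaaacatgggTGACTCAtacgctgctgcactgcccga

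RMER19B, an ERVK LTR, held the E-box CACGTG in 5 of 9 members, all printed here with the E-box in capitals.
RMER19B near Mon2 (chr10:123060951-123060996, plus strand): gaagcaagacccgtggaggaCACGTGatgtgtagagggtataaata
RMER19B near Aim2 (chr1:173427496-173427541, plus strand): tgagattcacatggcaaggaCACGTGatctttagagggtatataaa
RMER19B near Ly9 (chr1:171619160-171619205, plus strand): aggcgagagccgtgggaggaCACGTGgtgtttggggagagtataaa
RMER19B near Adk (chr14:21268415-21268460, minus strand): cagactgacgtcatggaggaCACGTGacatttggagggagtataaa
RMER19B near Nelfa (chr5:33938572-33938617, plus strand): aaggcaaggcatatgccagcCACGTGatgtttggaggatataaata

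Pairs of RMER19B members shared a median of 50% of the flanking bases over both sides (10 pairs, 47.5% to 67.5%), against 30% for non-repeat distal peaks with an E-box. RMER15 pairs shared 32.5% (45 pairs), close to the 30% of non-repeat distal peaks with an AP-1 motif. ORR1B1, RMER15 and RMER19B were singled out after their motif shares were seen.

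Satellite members carried a different kind of sequence. The GSAT_MM member with the most tags is printed as 200 bases of the plus strand around its centre, with no motif marked.
GSAT_MM near 4933422A05Rik (chr9:35305357-35305556, plus strand): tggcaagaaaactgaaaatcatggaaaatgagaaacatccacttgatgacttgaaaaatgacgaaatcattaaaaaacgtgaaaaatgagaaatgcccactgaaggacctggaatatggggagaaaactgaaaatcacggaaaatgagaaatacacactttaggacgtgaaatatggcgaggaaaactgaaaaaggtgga

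In GSAT_MM members a median of 83.3% of the 12-base words of this window recurred in another GSAT_MM member (n = 52), while in ORR1E members the median was 3.17% (n = 43). Satellite members thus shared most of their words in the assembly, and ORR1E members few. How reads that map to several places were handled is not given in the sources used here, so tags in such copies cannot be assigned to 1 place.

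The libraries were shallow. Tags in peaks numbered 372367 in NCoR f/f Veh 1 and 509741 in Veh 2 (2.37% and 2.73% of all tags), and between 116733 and 202523 in the WT libraries. Promoter peaks (within 2 kb of a transcription start site, TSS) were present at Veh for 5 of 10 macrophage markers (Cd14, Cd68, Mertk, Spi1 and Tyrobp, with 104 and 110 tags in all), and for 0 of 6 T cell, 0 of 5 B cell, 0 of 6 neutrophil, 0 of 3 mast cell, 0 of 4 fibroblast and 0 of 3 epithelial markers. Adgre1, Csf1r, Fcgr1, Itgam and Lyz2 had none. Of 3 erythroid markers, Klf1 had peaks with 14 and 14 tags. Their part in the results was not tested.

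LTR, LINE and SINE members held tag numbers close to those of distal peaks outside repeats. LTR members had a median of 13 tags in NCoR f/f Veh 1 and 18 in Veh 2, LINE members 13 and 18, and SINE members 14 and 18. DNA members had 15 and 17.5. Non-repeat distal peaks had 14 and 19. Per 10000000 tags in peaks, the scale of normalized tags throughout, LTR and LINE members had medians of 349 and 353 in the 2 libraries and non-repeat distal peaks 376 and 373. The difference amounts to 1 tag in a typical peak, and tests between sets of peaks were not run. Satellite members stood apart with medians of 48 and 53.5 tags (n = 76), as did members in ribosomal RNA repeats with 34 and 41 (n = 17). Simple repeats had 18 and 23 (n = 50), and low-complexity members 16 and 18 (n = 43).

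Some of the members with the most tags lay close together. Members less than 50 kb from their neighbour, in runs of at least 5, or on unplaced contigs, made up 10.5% of the members (n = 124) and held 32.1% and 28.1% of all member tags. The group included 59 of the simple or satellite members, 35 SINE, 21 LTR and 7 LINE members. The largest run was an unplaced contig with 42 members near Pisd-ps3, followed by 28 GSAT_MM members within 36485 bases at the start of chromosome 9 (chr9:3000018-3036502) and 21 members around Sfi1, a gene for a centrosomal protein (chr11:3100348-3200028). Another 8 satellite members stood at chr14:19415693-19419419 and 6 at chr2:98662712-98667244. Outside such runs, members had medians of 13 and 18 tags (n = 1059).

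The SINE with the most tags was B1_Mus2 in an intron at Sfi1 (chr11:3184255-3184914), with 221 and 245 tags. B1_Mur1 (149 and 158), ID4_ near Eif4enif1 (142 and 141) and the LTRs RLTR33 (163 and 162) and ORR1D1 (130 and 184) lay in the same run. These tags were counted in that run and may have come from other copies, as how such reads were handled is not given. SINE members outside runs had medians of 13 and 17 tags. RLTR33 in an intron near Brox (chr1:183299162-183299510) had 192 and 224 tags and was the highest LTR member outside the runs. Brox encodes a protein of the nuclear envelope. Outside the runs, and chosen after values were seen, the highest SINE was B1_Mm near Ly6c2 (chr15:75086226-75086530), with 93 and 99 tags. Ly6c2 encodes a surface marker of monocytes. The highest ORR1D2 was in an intron near Dnajc3 (chr14:119007471-119007756), with 46 and 71 tags. Dnajc3 encodes an endoplasmic reticulum chaperone.

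Among LINE members the highest was Lx8b upstream of Mroh2a (chr1:88220364-88221979), with 70 and 117 tags in a peak of 1616 bases, in a run of 11 members. The next were L3 near 1600002D24Rik (chr16:95827416-95827804), with 32 and 35 tags, and L2b near Zswim6 (chr13:107944840-107945230), with 28 and 40. Neither lay in a run. Among DNA members the highest were URR1B in an intron near Adgrl2 (34 and 53 tags), MER5A near Mylk2 (36 and 42) and Arthur1B near 4930556J02Rik (25 and 39). Adgrl2 encodes an adhesion receptor and Mylk2 a kinase of muscle myosin. Among satellites, GSAT_MM near 4933422A05Rik (chr9:35305356-35305556), the sequence printed above, had 322 and 324 tags, SYNREP_MM at chr2:98662712-98662916 had 284 and 298, and GSAT_MM at chr2:98663765-98664164 had 257 and 261. Satellite tags were nearly equal in the 2 libraries although Veh 2 was deeper.

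That equality set satellites apart from LINE, SINE, LTR and non-repeat distal peaks, but was not theirs alone. After scaling to tags in peaks, 70 of 76 satellite members were higher in Veh 1, by a median of 0.39 on the log2 scale, against 0.04 for non-repeat distal peaks, of which 54.3% were higher in Veh 1. LINE members differed by -0.01, SINE members by 0.06 and LTR members by 0.07. Ribosomal RNA members differed by 0.20, and 12 of 17 were higher in Veh 1. Among runs with 0 satellites, the one near Zfp985 had 106 and 110 tags in Veh 1 and Veh 2. The one near Mroh2a had 330 and 424. The Sfi1 run, with 3 satellites in 21 members, had 1888 and 2113. The summed tags of satellite members in Veh 1 were 0.961 times those in Veh 2, and those of LTR members 0.77 times. Raw tags of the satellites did not follow the tags in peaks of the libraries, and the tables keep at most 3 tags at a base position. The part of this limit was not tested.

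Members differed from non-repeat distal peaks in place more than in strength. Introns held 43.4% of members and 56.6% of non-repeat distal peaks. Within the groups, introns held 61.8% of SINE, 56.8% of DNA, 45.2% of LINE, 37.7% of LTR and 10.5% of satellite members. The median distance to the nearest TSS was 25820 bases for LTR, 24079.5 for LINE and 21133 for SINE members, and 17208.5 for non-repeat distal peaks. Of the members, 5.41% lay within 2 kb of a TSS, against 14.5% of non-repeat distal peaks. Of low-complexity members 30.2% did (13 of 43). Median peak widths were 287 bases in all members and 299 in non-repeat distal peaks. Satellite and ribosomal RNA members were narrower, with medians of 209.5 and 213 bases, and low-complexity members wider, with 341.

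Most of the sequence searched was not masked as repetitive in the reference. Lower-case (masked) bases made up a median of 90% of the central 200 bases in satellites, 21% in SINE, 12.5% in LTR, 11% in LINE and 9.75% in DNA members, and 0% in non-repeat distal peaks. Among the members, ORR1 had 21%, RMER15 8.75%, and MIR and Lx8 0%. Which program set the lower case, and where each repeat begins and ends, is not given in the sources used here, so the masking does not check the repeat labels, and a motif match in the window may lie outside the repeat. GC content had medians of 48% in LINE, 50% in SINE, 49.5% in LTR and 52.5% in non-repeat distal peaks, 35.5% in satellites and 64% in low-complexity members. The 44 members off chromosomes 1 to 19, X and Y have no sequence here and are left out of all sequence values.

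The members came from 325 different repeat names, of which 170 had 1 member each. By family, ERVL-MaLR LTRs gave 316 members, L1 166, MIR 68, ERVL 66, ERVK 65, B2 49, B4 47, L2 42, Alu (the mouse B1 kind) 38, ERV1 35, CR1 20 and hAT-Charlie 19. The names with the most members were GSAT_MM (63), MTD (50), ORR1E (43), Lx8 (30), B3A (25), MIR3, ORR1D2 and ORR1F (22 each), and B3 and MIRb (21 each). The families with members thus included MIR and L2, which are old. How often each name occurs in the genome was not counted here, so these numbers do not say whether a repeat was open more often than its copy number would give.

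PU.1 matches were frequent in the ORR1 members of the LTR group. The motif was found in 20.8% of LTR members (99 of 476, Wilson interval at 95% confidence 17.4% to 24.7%), 20.5% of DNA, 17.5% of LINE and 12.5% of SINE members. Non-repeat distal peaks had it in 13% (806 of 6206) and all resting peaks in 7.93% of 15285. Among ERVL-MaLR LTRs, the ORR1 subfamilies had it in 48.7% (39.8% to 57.7%), the MT subfamilies in 12.1% (7.33% to 19.2%) and the others in 13.9%. By name, ORR1B1 had 8 of 10, ORR1D2 13 of 22, ORR1E 19 of 43 and ORR1F 8 of 22, while MTD had 2 of 49. Outside LTRs, the old LINE family CR1 had it in 8 of 20, 7 of them in L3 (7 of 16). Copies of 1 repeat descend from 1 sequence and are not independent, so the intervals cover counting error only.

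AP-1 matches had another distribution. DNA members held one in 34.1% (15 of 44), SINE members in 25%, LINE members in 19.3% and LTR members in 17.6%, beside 21.5% of non-repeat distal peaks and 11.7% of all resting peaks. In the DNA group hAT-Charlie elements had it in 10 of 19. Within LTRs the names with the largest shares were RMER15 with 11 of 18 (38.6% to 79.7%) and MTEb with 7 of 15, and MTD had 2 of 49. Among SINEs, B3 had it in 6 of 15 and MIR3 in 6 of 22. Some names held both, as ORR1E did with 19 PU.1 and 11 AP-1 matches in 43 members.

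**Figure D1:**
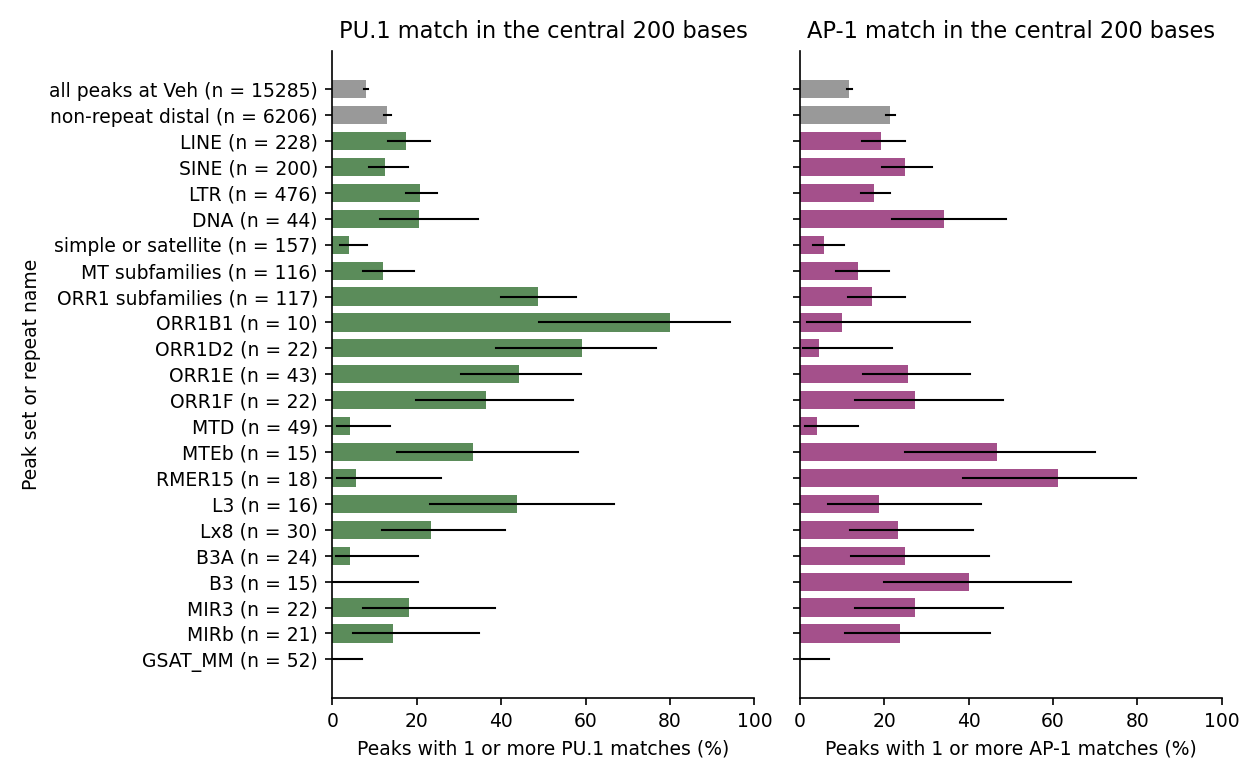
Share of peaks (%) with at least 1 PU.1 match (left) or AP-1 match (right) in the central 200 bases, for all resting peaks, non-repeat distal peaks (grey), repeat groups and single repeat names. Lines are Wilson intervals at 95% confidence. The 4 ORR1 names shown lie between 36.4% and 80% for PU.1 and RMER15 at 61.1% for AP-1, while GSAT_MM had neither in 52 members.

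Other motifs were each frequent in a few names. C/EBP (TTGCNNAA) was found in 13.6% of members, beside 12.6% of non-repeat distal and 8.71% of all resting peaks. ERVK members had it in 23% and B4 members in 25.6%. RUNX (TGTGGTT) was found in 10.7%, beside 9.23% and 5.6%, and in 7 of 10 members of the satellite SYNREP_MM and 8 of 22 of ORR1D2. The E-box was found in 4.92%, beside 4.9% and 6.54%, and the IRF motif in 3.16%, beside 2.37% and 1.93%. NFκB-p65 was found in 2.46%, beside 3.9% and 3.51%. YY1 (AAGATGGC) was found in 0.79%, beside 0.89% and 2.24%, and CTCF in 0.263%, beside 0.773% and 0.674%. Both strands were searched. The AP-1 spellings are each other's reverse complement, the E-box reads alike on both strands, and no motif contains another. A match is a run of letters and was not tested as a binding site.

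A motif match did not go with more tags. Among LINE, SINE, LTR and DNA members outside the runs, those with a PU.1 match had medians of 13 and 17 tags (n = 172) and those without 13 and 18 (n = 744). With an AP-1 match the medians were 13 and 18 (n = 191), and without it 13 and 17 (n = 725).

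Members were shared with the other peak sets of the study about as often as non-repeat distal peaks. The IDR set of KLA-treated NCoR f/f cells held 66.4% of members and 66.2% of non-repeat distal peaks, and all 4 sets merged in the table (Veh and KLA, with and without NCoR) held 28.1% and 25.6%. Satellites were in all 4 sets in 86.8% (66 of 76), ribosomal RNA repeats in 13 of 17, LTR members in 20.3%, LINE in 23% and SINE in 26.3%. Members found only at Veh made up 23.7%, and 26.4% of LTR members. These sets say whether a peak was called and not how strong it was.

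Members at genes of the macrophage programmes were few in number, as were the distal peaks there. Of 118 genes in 6 lists, 9 had a member assigned by nearest TSS (11 members), and 57 had a non-repeat distal peak (113 peaks). Repeats thus held 8.87% of the distal peaks at listed genes and 15.9% of all. The macrophage identity list had 5 members at 3 of 27 genes, beside 33 non-repeat distal peaks (13.2% in repeats). The TLR4 response list had 2 at 2 of 37, beside 32 (5.88%), and the interferon response list 0 at 15 genes, beside 2. The LXR and lipid list had 1 at 17, beside 25 (3.85%), and the osteoclast list 1 at 10, beside 9 (10%). The list of the NCoR complex and its partners had 2 at 12, beside 12 (14.3%). These shares rest on few peaks and were not tested.

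At Tyrobp, which encodes a signalling adaptor of myeloid receptors, a (CA)n repeat 19.2 kb from the TSS (chr7:30394418-30394814) had 20 and 22 tags and a PU.1 match. Maf, a transcription factor of resident macrophages, had 3 members, MER63A (19 and 13 tags), L4_B_Mam (10 and 25) and AmnSINE1 (10 and 13). Itgam, which encodes CD11b, had RMER1C 11.8 kb away (14 and 13). Nfkbia, the inhibitor of NFκB, had a GC_rich stretch in an intron 0.6 kb from its TSS (19 and 29). Marcks, a membrane-binding kinase substrate, had MTD 220 kb away (11 and 9). Pparg, a nuclear receptor of lipid metabolism, had L1MA7 26.3 kb away (11 and 13). Tnfrsf11a, which encodes RANK, had AmnSINE1 in an intron (chr1:105790197-105790402, 9 and 13 tags) with both a PU.1 and an AP-1 match. Tbk1, a kinase of innate immunity, had MTD in an intron (16 and 23), and Mapk3, which encodes ERK1, had L3 13.4 kb away (14 and 17). Of the 6 members at these genes that had a WT peak, 0 were called for KLA or RGFP966. Of all WT peaks 3.3% were gained and 1.73% lost with KLA, and 0.237% and 0.103% with RGFP966 + KLA against KLA. At such shares 6 members are too few to judge a response. The members at Nfkbia and Marcks had no WT peak. The nearest TSS does not show which gene a peak acts on.

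To follow the members through TLR4 activation, they were matched to the peaks of the WT table by an overlap of at least 1 base. A match was found for 553 of 1183 members (46.7%), to 552 WT peaks, and for 43.4% of non-repeat distal peaks. By group the share was 58.6% for simple or satellite (89.5% for satellites), 54.5% for DNA, 46.1% for SINE, 45.2% for LINE and 42.4% for LTR members. The other members have no WT values. Over all 9698 WT peaks, edgeR with Benjamini-Hochberg adjustment called 3.3% gained and 1.73% lost with KLA, at an adjusted p under 0.05 and a fold over 2. Of the 552 peaks of members, 15 were gained (2.72%) and 14 lost (2.54%), and of the 2706 of non-repeat distal peaks 42 were gained (1.55%) and 87 lost (3.22%). The median log2 change of the members was -0.02 (middle range from -0.28 to 0.36), and that of all WT peaks 0.02. Both shares of the members lie near those of all peaks.

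The 29 calls were 6 LINE, 7 SINE, 10 LTR, 1 DNA and 5 simple or low-complexity members, and 0 satellites (0 of 68 also had an unadjusted p under 0.05). In all 29 the KLA and Veh libraries did not overlap in normalized tags. The calls were made from these same libraries, and the share over all WT peaks was not counted, so this adds no support. Scaling to all tags in place of tags in peaks gave 13 calls (5 gained, 8 lost), and loess offsets 37 (15 gained, 22 lost). The number of calls fell when any Veh or KLA library was left out. With edgeR an unadjusted p under 0.05 was found for 99 of the 552 member peaks and for 1888 of all 9698. DESeq2 with its own size factors called 0 member peaks, with an unadjusted p under 0.05 in 31 of 552. The DESeq2 numbers over all WT peaks are not given here, so these cannot be set against a general share.

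In the WT Veh libraries, which the calls use, the 15 gained members had medians of 6 and 4 tags, beside 11 and 10 in non-repeat distal peaks. The NCoR f/f Veh libraries are deeper, and the calls do not use them, but the choice of members does. In these the same members had 15 and 18, beside 14 and 19 in non-repeat distal peaks. MLT1K, an old MaLR LTR in an intron near A530050N04Rik, had 4 and 1 tags at Veh and 17 and 17 at KLA, from 196 ± 161 to 1183 ± 387 normalized tags (SD, n = 2), a log2 change of 2.44 (edgeR adjusted p = 0.00548). It had 15 and 23 tags in the NCoR f/f libraries. Its log2 change was 3.64 without Veh 1 and 1.83 without Veh 2, where the call was lost. RMER15 near Rab18, a small GTPase of lipid droplets, had 4 and 4 tags at Veh and 25 and 14 at KLA (log2 change 1.98, edgeR adjusted p = 0.00781), and was not called without Veh 1, Veh 2 or KLA 1. Both had an AP-1 match. A G-rich stretch near Sema6d, a semaphorin gene (chr2:124858492-124858952), had 4 and 1 tags at Veh and 13 and 11 at KLA (log2 change 1.94, edgeR adjusted p = 0.0489) and held an NFκB-p65 match. This was the least stable of the 6, with log2 changes of 3.15 without Veh 1 and 1.33 without Veh 2 and no call with any library left out, loess offsets, a filter of 16 tags, the 4 libraries alone or all tags. A GC_rich stretch near Edn2, an endothelin gene (chr4:120032623-120032944), had 4 and 6 tags and then 29 and 14 (log2 change 1.80, edgeR adjusted p = 0.0086), and was not called without Veh 1 or KLA 1. It held none of the 9 motifs.

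A second RMER15 member and an Lx7 LINE complete the 6 largest gains, and their sequences are printed in 200 bases of the plus strand around the peak centre, with the AP-1 match in capitals.
RMER15 near Ptpre (chr7:135644629-135644828, plus strand): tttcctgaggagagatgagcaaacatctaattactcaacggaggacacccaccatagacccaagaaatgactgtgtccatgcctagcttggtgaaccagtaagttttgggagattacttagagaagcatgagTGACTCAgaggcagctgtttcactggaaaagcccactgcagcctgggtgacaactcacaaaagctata
Lx7 near N6amt1 (chr16:87387603-87387802, plus strand): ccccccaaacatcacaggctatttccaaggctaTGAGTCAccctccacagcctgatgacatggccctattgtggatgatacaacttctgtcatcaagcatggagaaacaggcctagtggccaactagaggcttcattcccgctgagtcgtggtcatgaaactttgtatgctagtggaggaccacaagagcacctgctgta

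Ptpre encodes a receptor-type tyrosine phosphatase, and its RMER15 member (chr7:135644519-135644937) had 10 and 4 tags at Veh, 38 and 24 at KLA and 42 and 30 at RGFP966 + KLA. This was a rise from 553 ± 315 to 2044 ± 17.1 normalized tags (SD, n = 2), a log2 change of 1.85 (edgeR adjusted p = 0.00232). It was 2.60 without Veh 1 and 1.39 without Veh 2, where the call was lost. N6amt1 encodes a methyltransferase, and its Lx7 member (chr16:87387541-87387864) had 4 and 4 tags at Veh and 29 and 12 at KLA (log2 change 2.05, edgeR adjusted p = 0.00574), and was not called without Veh 1 or KLA 1. The other 9 gained members were B3 near Man2a1, ORR1A4 near Gm29811, MIR near Gm5535, MIR near 1700099I09Rik, L2c near Ptprj, MIRb near Ranbp3l, ORR1E near Slco3a1, MIR3 near Fkbp1a and Arthur1 near A530046M15Rik. All 15 had log2 changes between 1.41 and 2.44. MIR elements were 4 of the 15 and 33 of the 552 member peaks.

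Of the 15 gained members 9 held an AP-1 match, and of the 14 lost members 3 did. Among all matched members with an AP-1 match, 9 of 111 were gained (8.11%), against 6 of 403 without one (1.49%). In non-repeat distal peaks these were 14 of 694 (2.02%) and 28 of 1968 (1.42%). In the WT Veh libraries, which the calls use, matched members with an AP-1 match had medians of 10 and 8 tags. Those without had 12 and 11, and they include satellites, of which 0 were called. Of the 10 matched RMER15 members 8 were higher at KLA, with a median log2 change of 0.90. Of all WT peaks 51.3% were higher, with a median of 0.02. The 2 RMER15 members that were called are among the 9 above, so RMER15 is not separate from these shares. No test was run on these shares. NFκB-p65 matches stood in 2 gained and 0 lost members, and PU.1 matches in 2 and 2.

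The 14 lost members had medians of 16.5 and 15.5 tags in the WT Veh libraries, which the calls use. In the deeper NCoR f/f Veh libraries they had 16.5 and 25.5. L2c near Zswim6 (chr13:107899702-107899971) had 13 and 11 tags at Veh and 4 and 1 at KLA, from 958 ± 70.6 to 150 ± 90.7 normalized tags (SD, n = 2), a log2 change of -2.49 (edgeR adjusted p = 0.00539). It was -3.37 without KLA 1, and the call was lost without Veh 1. A C-rich stretch near Ano6, a phospholipid scramblase gene (chr15:95807891-95808185), had 8 and 11 tags and then 2 and 3 (log2 change -2.15, edgeR adjusted p = 0.0225). Its log2 change was -2.75 without KLA 2 and -1.53 without KLA 1, and the call was lost without Veh 1, Veh 2 or KLA 1. Folds that rest on so few tags are loose. B1F2 near Hnrnpc, which encodes an RNA-binding protein (chr14:52106873-52107151), had 16 and 15 tags and then 3 and 6 (log2 change -2.04, edgeR adjusted p = 0.00743). Its log2 change was -2.89 without KLA 2 and -1.26 without KLA 1, where the call was lost. ORR1E near Rab6b, a small GTPase gene (chr9:103149116-103149412), had 13 and 13 tags and then 5 and 3 (log2 change -1.95, edgeR adjusted p = 0.0121), and was not called without Veh 1, Veh 2 or KLA 1. Lx8 near Clca4c-ps (chr3:144897259-144897577) had 18 and 22 tags and then 6 and 8 (log2 change -1.78, edgeR adjusted p = 0.00539), and was not called without Veh 2 or KLA 1.

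ORR1D2 near Timm8a2, a gene of mitochondrial import (chr14:122009554-122009898), had 24 and 16 tags at Veh, 9 and 5 at KLA and 21 and 15 at RGFP966 + KLA (log2 change with KLA -1.78, edgeR adjusted p = 0.0051), and was not called without Veh 1 or KLA 1. It is printed as 200 bases of the plus strand around the peak centre, with the PU.1 match in capitals, here on the minus strand. The member also holds an E-box.
ORR1D2 near Timm8a2 (chr14:122009627-122009826, plus strand): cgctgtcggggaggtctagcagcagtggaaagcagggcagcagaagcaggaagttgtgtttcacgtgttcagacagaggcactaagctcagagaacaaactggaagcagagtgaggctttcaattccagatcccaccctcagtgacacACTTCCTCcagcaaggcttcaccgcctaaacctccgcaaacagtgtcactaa

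The other 8 lost members were MTEa near Pik3r1, MTE2a near Mir7656, L1MEc near Evl, L2 near Cd47, RSINE1 near Plek, T-rich near Arhgap18, RMER19C near Pard6g and C-rich near Mir148a. All 14 had log2 changes between -2.49 and -1.17.

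**Figure D2:**
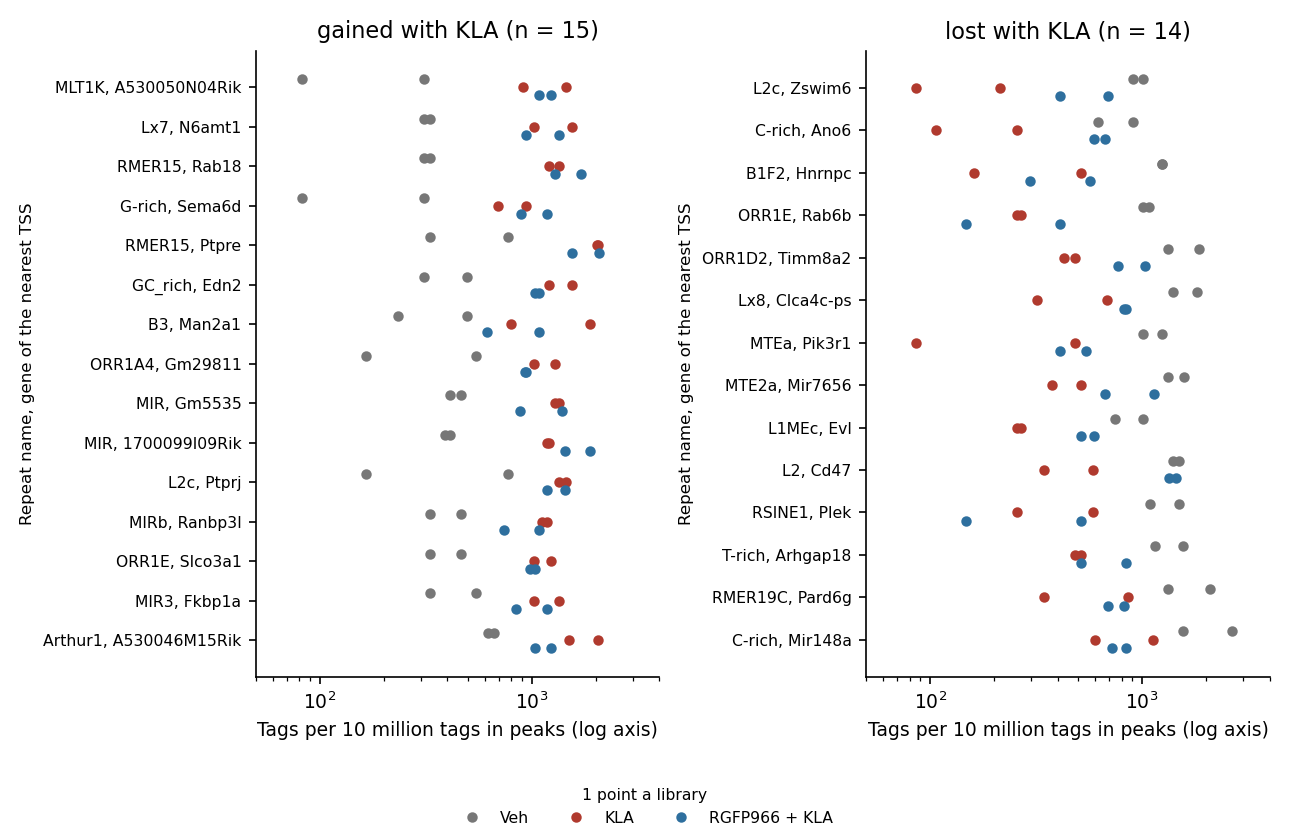
Normalized tags (log axis) of the 29 members called with KLA in each of the 6 WT libraries, 1 point a library, gained on the left and lost on the right. In every row the KLA points lie on one side of the Veh points, from which the calls were made, and the fitted log2 changes run from -2.49 to 2.44.

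RGFP966 gave no calls among the members. Over all WT peaks, 0.237% were gained and 0.103% lost with RGFP966 + KLA against KLA. Of the 552 member peaks edgeR called 0, with an unadjusted p under 0.05 in 71, beside 1343 of all 9698 WT peaks. DESeq2 called 0 of the 552, with an unadjusted p under 0.05 in 7, and its number over all WT peaks is not given here. Non-repeat distal peaks had 4 gained and 1 lost. The 15 members gained with KLA had log2 changes between -0.59 and 0.49 with RGFP966 (median -0.21). The 14 lost members had a median of 0.69 and 12 of them were higher with RGFP966. Of all WT peaks 52.8% were higher, and of all member peaks 42.0%. The gained and lost members were called on the same KLA libraries, which enter these values too, so the values are not independent of the calls. The closest to a call was L2 near Cd47, the ligand that restrains phagocytosis (chr16:49840202-49840585). It had 18 and 18 tags at Veh, 11 and 4 at KLA and 27 and 28 at RGFP966 + KLA, with 1441 ± 63.9, 465 ± 174 and 1387 ± 76.8 normalized tags (SD, n = 2). Its log2 change with RGFP966 was 1.48 (edgeR adjusted p = 0.059), and it was called when Veh 1 or Veh 2 was left out of the fit.

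No difference between conditions in the share of distal tags held by members was detectable with these libraries. Of the tags in all matched distal peaks, members held 23.8% and 26.8% at Veh, 23.9% and 28.4% at KLA and 23.6% and 24.5% at RGFP966 + KLA. The means were 25.3% ± 2.15, 26.2% ± 3.2 and 24% ± 0.627 (SD, n = 2). The difference was 0.87 percentage points for KLA (exact two-sided permutation test, p = 0.667) and -2.16 for RGFP966 + KLA against KLA (exact permutation p = 0.667), and 2 libraries against 2 cannot give a p under 0.333. The 2 KLA libraries and the 2 Veh libraries differed from each other by more than these differences, and the 2 RGFP966 + KLA libraries by less than the -2.16 points. Outside the runs of members the shares were 15.0% and 15.4% at Veh, 15.3% and 16.7% at KLA and 15.4% and 15.7% at RGFP966 + KLA.

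Satellites varied most among libraries. They held 9.2% and 11.3% of distal tags at Veh, 8.2% and 12% at KLA and 7.88% and 8.63% at RGFP966 + KLA, while LTR members held between 6.11% and 6.7% in all 6 libraries. Median normalized tags of satellite members were 3063 and 3922 at Veh, 2887 and 4540 at KLA and 2814 and 2961 at RGFP966 + KLA (n = 68 peaks). The high libraries, Veh 2 and KLA 2, were those with the smallest share of tags in peaks (1.4% and 1.44%, against 1.76% to 2.06%). Scaled to all tags of a library, satellite medians were 63.2, 55.0, 50.7, 65.3, 51.8 and 53.2 per 10000000 tags in the same order. The highest was then 1.29 times the lowest, in place of 1.61 times. For LTR members the reverse held, 1.52 times when scaled to all tags and 1.07 times when scaled to tags in peaks.

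**Figure D3:**
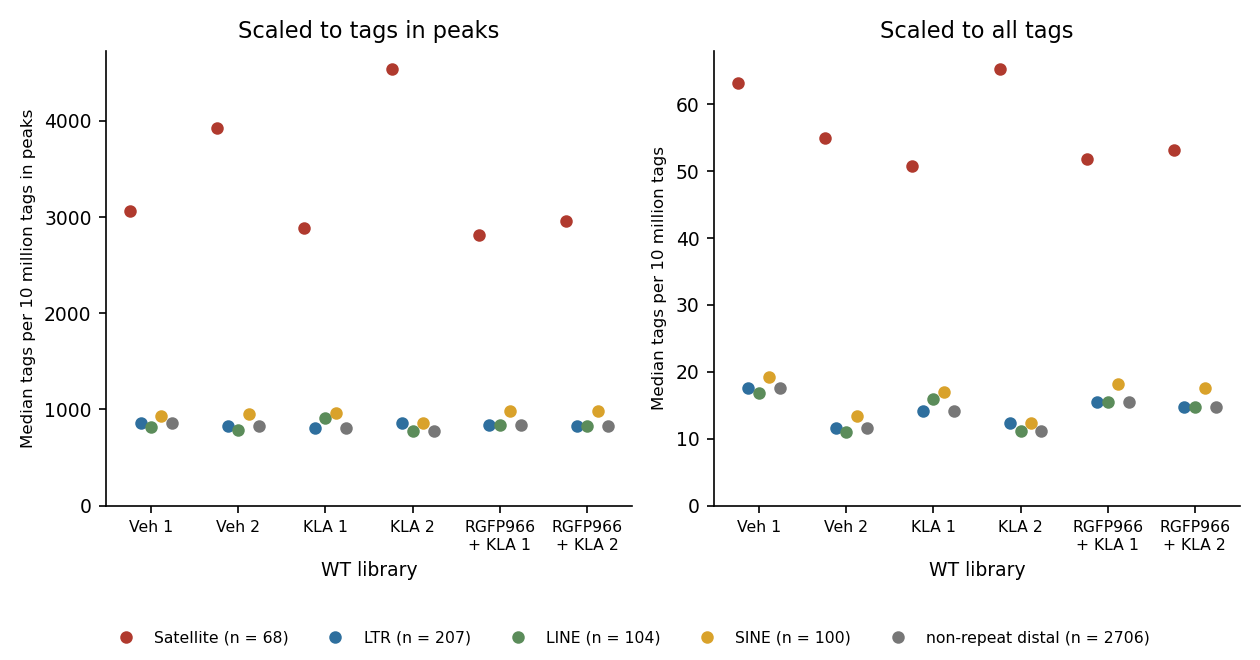
Median tags of matched satellite, LTR, LINE, SINE and non-repeat distal peaks in each WT library, per 10000000 tags in peaks (left) and per 10000000 of all tags (right), both axes from 0. Satellites lie between 2814 and 4540 on the left and between 50.7 and 65.3 on the right, above all other sets in each library.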

How the data were processed

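The deposited files hold raw ATAC-seq counts, which the authors made as whole numbers of tags per merged peak and library, with at most 3 tags at a base position and no adjustment for depth. They mapped single-end reads to mm10 with Bowtie2 and called, merged and annotated IDR peaks with HOMER. DESeq2 is named in the submitters' processing notes. Each of the 4 conditions had 2 libraries, and every per-sample column was used. Depth was 116733 to 509741 tags in peaks, so a typical peak holds few tags and small changes could not be seen.

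Members and gene lists were chosen with earlier results of these data known. Tags were scaled to 10000000 tags in peaks. WT conditions were compared with edgeR 4.0.16 in R 4.3.3 (quasi-likelihood test) on all 9698 peaks with at least 4 tags in a library, with tags in peaks as library size, all 6 WT libraries in 1 model and no covariate. Peaks with a Benjamini-Hochberg adjusted p under 0.05 and over 2-fold were called. DESeq2 1.42.0 was run beside it, and the edgeR step was tested on simulated data. Shares between libraries were compared with an exact permutation test (scipy 1.17.1). The tables, counted on different peaks, were tested separately. Sequences were read with samtools 1.23.1 from RefSeq's GRCm38 and searched in 200 bases around the peak centre. All 21 chromosomes with peaks held every peak end.

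Named were the 3 members with the most tags in each of the 5 repeat groups, up to 6 gained and 6 lost called members with the largest change in a comparison, members at listed genes, and the 10 repeat names with the most members. Other names are marked as chosen after their values were seen, as are the runs of members. Names given in full lists, or from motif shares, were also chosen afterwards. Alternatives were other scalings, filters, overlaps, windows and tools, and each library left out.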

Additional observations from a re-analysis of the deposited data

How the results depend on the processing

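The members called with KLA (29) stayed within 1.5 times that number under TMM factors (29), loess offsets (37), no filter (29), a filter of 16 tags (24), the 4 libraries alone (25), a 1.5-fold threshold (29), an overlap of 50% of both peaks (27), members over 2 kb from a TSS (27) and members outside runs (29, added after seeing the data). Scaling to all tags gave 13, all among the 29, and DESeq2 with its own size factors or with tags in peaks gave 0. Leaving out 1 library gave between 6 and 24. With RGFP966 against KLA the 0 became 3 with loess offsets (Cd47, and L3 near 6430548M08Rik and Ccdc90b) and 1 (Cd47) with a filter of 16 tags, with the 4 libraries alone and with the replicate block, and lay between 0 and 1 when 1 library was left out (1 without Veh 1 or Veh 2, Cd47). The cause was not tested.

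Same-numbered WT libraries deviated together with correlations of 0.059, 0.017 and 0.015, so the numbers were not taken as pairs. With the replicate block, 31 members were called with KLA, 29 of them as before. The difference in the share of distal tags ranged from -1.39 to 3.13 percentage points for KLA when 1 library was left out, and turned to -0.65 without Veh 1 and to -1.39 without KLA 2. For RGFP966 it ranged from -4.42 to 0.11, with 0.11 without KLA 2. With 1 library left in a condition these are values with no test.

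Over all alternatives, the 12 named called members gave 122 results on the same side of the threshold and 55 below it, with 0 reversed. Of the 12, 9 lost their call without KLA 1, 8 without Veh 1 and 7 without Veh 2. Motif shares fell in the 100-base window, with PU.1 at 31.6% in ORR1 against 7.99% in non-repeat distal peaks, and rose over whole peaks, with 53.8% against 15.5%. Outside runs the simple or satellite median fell to 462 normalized tags. Few tags per peak limit every call. Intervals cover counting error only.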

Other observations

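The 66 resting peaks in repeats with a blank annotation, which belong to no group above, had medians of 19.5 and 21.5 tags in the NCoR f/f libraries, and 50 of them were higher in Veh 1 after scaling to tags in peaks.

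SYNREP_MM, a satellite with 10 members, was singled out after its values were seen. Its members had medians of 63 and 64.5 tags, all were in the 4 merged peak sets and all had a WT peak. Of these, 7 held the RUNX motif, and pairs of them shared a median of 82.5% of the 20 bases on either side (15 pairs).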
